A study of Mus musculus with 12 samples.

Results

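The Acod1-/- macrophages that received OI followed by PM were compared with the Acod1-/- macrophages that received vehicle, 2 libraries against 2, out of the 12 RNA-seq libraries of the series. The libraries were chosen by their deposited labels (genotype Acod1-/-, treatment OI-PM or Control), and this OI+PM pair was taken up with the knowledge that its replicates are closer than those of the WT pair. The cells were bone marrow-derived macrophages (BMDMs), grown from bone marrow of male mice aged 7 to 11 weeks with the growth factor M-CSF for 8 to 10 days. Acod1-/- cells came from the strain C57BL/6NJ-Acod1em1(IMPC)J/J, which carries a targeted deletion in Acod1 in every cell, and WT cells, which enter the fit's estimate of the spread and a later comparison, came from mice labelled C57BL/6 (C57BL/6NJ in the study's methods). OI is 4-octyl itaconate, an esterified form of the metabolite itaconate that enters cells, and was given at 0.25 mM for 2 h before PM. PM is particulate matter, here urban dust (a NIST standard reference material), given at 20 μg/cm2 for 24 h. The remaining group of this genotype, 2 libraries of Acod1-/- cells that received PM without OI, is set beside both ends of the comparison. Libraries of cells given OI without PM were not analysed here, so in the comparison of OI+PM with vehicle the contributions of OI and of PM cannot be told apart except through the PM libraries. The labels do not say whether the 2 libraries of a group came from separate animals or cultures, so the p-values measure the spread between these libraries, which may be technical.

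ACOD1 makes itaconate from cis-aconitate in the mitochondria of activated macrophages, and cells without it cannot make itaconate of their own. Itaconate and OI are electrophiles that can modify cysteines of KEAP1, the protein that holds the transcription factor NRF2 in check, and NRF2 then turns on genes of glutathione synthesis, detoxification and NADPH supply. Particles engage receptors of the innate immune system, which act through NF-kB and interferon signalling on cytokine, chemokine and antiviral genes. M-CSF is also a mitogen, so part of a BMDM culture still divides.

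Acod1 (GRCm38 chr14:103046977-103056573, plus strand), the targeted gene, was counted in every library of cells labelled Acod1-/-. Its normalized CPM, the count scaled to the size of its library with TMM factors, was 1.26 and 1.22 in the 2 vehicle libraries, 108 and 94.2 after PM and 24.5 and 26.8 after OI+PM, and the groups did not overlap. The increase from vehicle to OI+PM was 4.37 ± 0.29 on the log2 scale (fold change ± SE, edgeR adjusted p = 9.87e-07), and in WT cells it was 4.35 ± 0.26, a difference between genotypes of 0.02 ± 0.38 (edgeR adjusted p = 0.987). Counts per gene do not show which exons were read, so the level of Acod1 does not test the genotype labels. The 4 libraries held 33942254 to 34601719 counts, within the range of the series (33616577 to 36817898), and mitochondrial genes took 1.76% to 1.87% of them. Among genes tested, 0 differed 2-fold or more between the vehicle libraries, 1 between the OI+PM libraries and 62 between the WT OI+PM libraries, values given as a description since the pair was chosen for its closeness. Macrophage markers were present, with a summed level of 15400 and 15400 normalized CPM after vehicle and 15700 and 16100 after OI+PM. After PM alone the sum was higher, at 28300 and 25600. Of the 12 macrophage markers, 5 fell by at least 2-fold with an edgeR adjusted p of 0.05 or less (8.88% of all genes tested did), among them Fcgr1, Cd14, Mertk and Maf, while Csf1r, Cd68, Spi1, Lyz2, Itgam, Adgre1 and Cebpa did not pass both thresholds. Dendritic cell, T and NK cell and erythroid lists had 0 members among the genes tested and summed to at most 1.83 normalized CPM in any of the 4 libraries. The B cell list summed to 25 and 24.3 after vehicle and 93.4 and 107.0 after OI+PM, nearly all of it Ighm, with 3 of its 8 genes at 0, Cd79a and Ighd among them. Of its 2 tested members, Ighm rose and the other fell (-1.315). The neutrophil list summed to 27.1 and 27.2 after vehicle and 53.4 and 52.2 after OI+PM, and the fibroblast list to 3.53 and 3.69 after vehicle and 1.24 and 0.677 after OI+PM. The neutrophil increase lies in S100a8 (3.85 and 3.52 to 31.7 and 32.5), since Csf3r stayed at 19.3 and 18 after 19.6 and 20.1. The part of these other cell types in the results was not tested.

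OI+PM lowered more genes than it raised. Of 10950 genes tested, those with a CPM above 1.5 in at least 2 of the 4 libraries, 1386 (12.7%) were differentially expressed genes (DEGs), defined by an edgeR adjusted p of 0.05 or less and a change of at least 2-fold. Of these, 414 (3.78% of genes tested) rose and 972 (8.88%) fell. A filter of 10 counts in total gave 641 higher and 1471 lower, the CPM filter in all 4 libraries 304 higher and 613 lower, and no fold threshold 2555 higher and 2898 lower. The largest decreases outnumbered the largest increases: 57 DEGs rose and 214 fell by at least 8-fold, and 18 rose and 59 fell by at least 32-fold. These sizes depend on the filter, which admits genes that are near absent in 1 group. The CPM filter in all 4 libraries kept 304 of the 414 higher and 586 of the 972 lower DEGs, and the size counts were not repeated with it. The libraries of the groups did not overlap for 9487 genes (86.6%), so that non-overlap alone singles out few genes here. In these bulk samples, fewer cells of a type and less RNA per cell cannot be told apart. Log2 fold changes ran from -6.98 to 9.20 with a median of 0.001. Total count scaling in place of TMM would shift the median of all genes to -0.15, and changes are given relative to the TMM centre. A value in parentheses after a gene is its log2 fold change of OI+PM over vehicle, with the SE where one is given. Each SE was worked back from the edgeR test statistic. It is approximate, and for genes with few counts in a group it can be smaller than counting error. Most genes named below follow a fixed rule of size within each list, which the methods state. Other members of a list are named, after their values were seen, to complete its counts. Exons of some named genes overlap those of other annotated genes (among them Slc6a9, Slc16a9, Ccna2, Tk1, Kif4, Foxm1, Ube2c, Mcm7, Ccnd1, Ccnd2, Sqstm1, G6pdx, Ddit3, Irf7, Irf9, Rtp4 and Pltp), and the sources used here do not say whether counting used strand, so reads on shared stretches are uncertain.

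**Figure D1:**
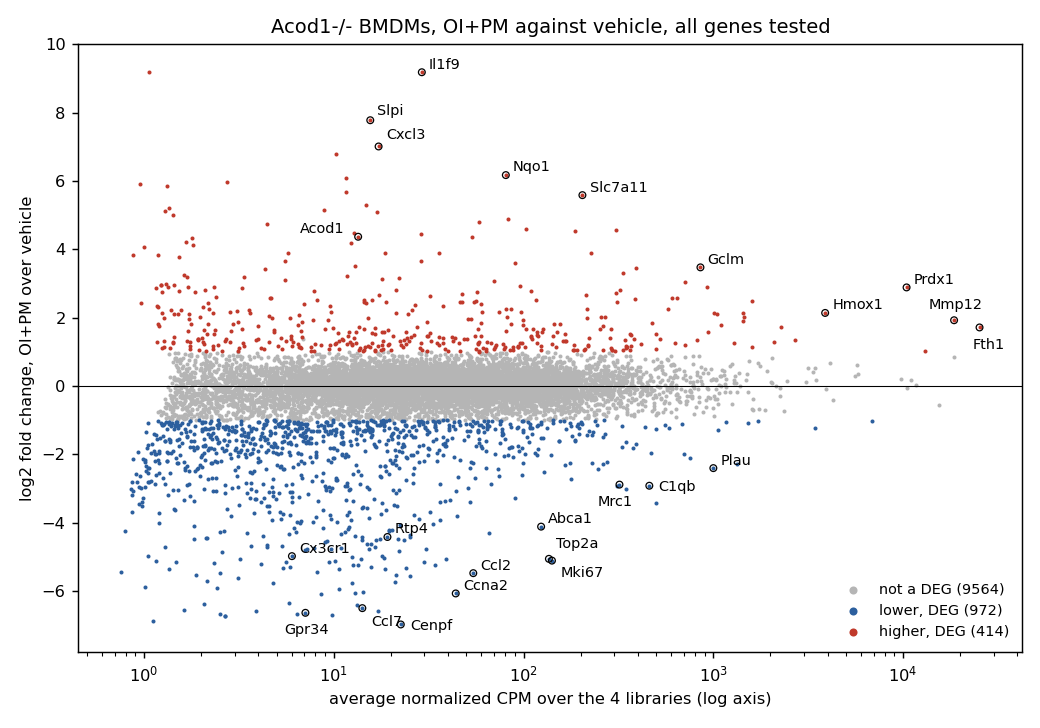
Log2 fold change of OI+PM over vehicle in Acod1-/- BMDMs (vertical axis) against the average normalized CPM of the 4 libraries (horizontal log axis) for each of the 10950 genes tested. Red points are the 414 DEGs that rose, blue points the 972 that fell, grey points the other genes, and circled points are named. Genes that fell by 5 or more on the log2 scale include Cenpf, Ccl7, Ccna2, Ccl2, Mki67 and Top2a, and Il1f9, Slpi, Cxcl3 and Nqo1 rose by 6 or more.

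The 10 largest increases among DEGs with an average of at least 5 normalized CPM were in Il1f9, Slpi, Cxcl3, Tarm1, Nqo1, Slc6a9, Slc16a9, Slc7a11, Ass1 and Cxcl1. Il1f9 (GRCm38 chr2:24186476-24193568, plus strand), also called Il36g, encodes IL-36γ, an IL-1 family cytokine. It had 3 and 4 counts in the vehicle libraries and 1952 and 1864 after OI+PM, a ratio of 603 after scaling (95% exact counting interval 292 to 1500), with 9.61 and 8.50 normalized CPM after PM and 58.9 and 57.3 after OI+PM. Slpi, a secreted inhibitor of neutrophil proteases, was at 0.137 and 0.139 after vehicle, 26.3 and 24.9 after PM and 30.5 and 31.5 after OI+PM. With PM alone the level was close to that with OI+PM. Slc6a9, a glycine transporter, rose from 0.410 and 0.250 to 22.9 and 22.7 and was at 4.00 and 3.86 after PM. Slc16a9, a carrier of the monocarboxylate family, rose from 0.519 and 0.361 to 22.7 and 22.6 and was at 2.26 and 2.16 after PM, itself a DEG over vehicle (2.32 ± 0.24). Tarm1, an activating receptor of myeloid cells, had 2 and 11 counts after vehicle and 677 and 653 after OI+PM, a ratio of 113 after scaling whose 95% exact counting interval starts at 66.0. The interval covers counting error only, and the fitted log2 fold change ran from 6.04 to 8.44 over the alternatives. Ass1, which makes argininosuccinate on the way to arginine, rose by 5.30 ± 0.26 on the log2 scale.

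The 10 largest decreases under the same condition were in Cenpf, Pimreg, Kif14, Gpr34, Aspm, Ccl7, Pbk, E2f7, Esco2 and Ccna2. Of these, Cenpf and Ccna2 stand in the mitosis list used below. Ccl7 is a monocyte-attracting chemokine and Gpr34 a receptor for lysophosphatidylserine. Cenpf (GRCm38 chr1:189640606-189688086, minus strand), a kinetochore protein of dividing cells, was at 45.5 and 44 normalized CPM after vehicle, 20.4 and 21.2 after PM and 0.543 and 0.154 after OI+PM. Gpr34 was at 14.2 and 13.8, 2.15 and 2.94 and 0.181 and 0.092 in the same order, so that it was already lower after PM. Several of these genes were close to absent after OI+PM: Pimreg had 9 and 3 counts, Kif14 3 and 5, Gpr34 6 and 3, and E2f7 3 and 6. Their vehicle levels were 83.3 to 106 times higher, and the exact counting intervals of these 4 ratios together span 43.6 to 243. These intervals cover counting error only. Over the alternatives, the fitted log2 fold change ran from -7.66 to -6.14 for Pimreg and from -7.08 to -6.34 for Kif14. For Gpr34 it ran from -7.19 to -6.25, and for E2f7 from -6.92 to -5.92.

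Genes of glutathione synthesis and use, a textbook NRF2 programme, rose almost throughout. Of 13 genes listed, 10 were tested, 9 rose, beside 3.78% of all genes tested, and 0 fell, and the median log2 fold change was 3.08 (0.001 over all genes). Chac1, which degrades glutathione, was the tested member that did not pass (0.96, edgeR adjusted p = 0.0204). Slc7a11, which imports cystine for glutathione synthesis, was at 8.31 and 8.35 normalized CPM after vehicle, 77.3 and 82.2 after PM and 419 and 381 after OI+PM, a change of 5.58 ± 0.17. The 3 treatments did not overlap, with PM between the others. Gclm, the modifier subunit of the enzyme that joins glutamate and cysteine, went from 143 and 140.3 to 1556 and 1581 with 458 and 454 after PM (3.47 ± 0.07, edgeR adjusted p = 8.05e-10). Gss, which completes glutathione, rose by 3.60 ± 0.14 and the glutathione transferase Gsta3 by 4.61 ± 0.16. Exons of Gss overlap those of Acss2, and those of Gclm overlap other annotated genes, so reads on the shared stretches are uncertain. Gclc, the catalytic partner of Gclm, rose by 3.44 ± 0.07, with 65.4 and 66.5 after vehicle, 118 and 122 after PM and 739.9 and 694 after OI+PM. Against PM, 7 of the 10 tested members were DEGs higher with OI+PM (1.84% of all genes), and against vehicle 7 were DEGs higher with PM (2.69% of all genes). These comparisons with PM share libraries with that of OI+PM and vehicle, and their values are set side by side as a description.

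Genes of quinone and heme detoxification rose as well. All 10 listed were tested, 8 rose (3.78% of all genes did) and 0 fell, with a median of 2.15, and Ephx1 (0.93) and Ugdh (0.71) stayed below 2-fold. Nqo1, a quinone reductase, was among the steepest at 2.27 and 2.14 after vehicle, 32.6 and 31.1 after PM and 159.5 and 159 after OI+PM (6.17 ± 0.11, edgeR adjusted p = 7.92e-10). Hmox1, which opens heme, went from 1415 and 1462 to 6507 and 6146 (2.14 ± 0.10), with 2623 and 2603 after PM. Aox1, an aldehyde oxidase, was at 0.219 and 0.388 after vehicle, 1.44 and 1.67 after PM and 3.35 and 2.52 after OI+PM, so that both OI+PM libraries lay above the other groups. Cbr3, a carbonyl reductase, rose by 2.47, the biliverdin reductase Blvrb by 1.84, and the conjugate exporters Abcc1 and Abcc4 rose by 2.24 and 2.17. The thioredoxin and NADPH list had 13 genes, all tested, of which 10 rose and 0 fell (median 2.10). Srxn1, which repairs peroxiredoxins, was at 216 and 225 after vehicle and 1644 and 1610.0 after OI+PM. Txnrd1, which reduces thioredoxin, was at 374 and 376 after vehicle, 703 and 705 after PM and 1657 and 1635 after OI+PM. Prdx1, an abundant peroxidase, went from 2396 and 2579 to 18244 and 18484, and Prdx6 and the NADPH-producing malic enzyme Me1 rose by 2.45 and 2.52. Of the enzymes of the pentose phosphate pathway, G6pdx, Pgd and Taldo1 rose by 1.17, 1.90 and 2.10. The 3 members that did not pass were Sesn2 (-0.05), Tkt (0.63) and Idh1 (0.79).

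Of 12 regulators of NRF2 and autophagy receptors tested, 2 rose, 0 fell and the median was 0.39, beside 3.78% of all genes that rose. Nfe2l2, which encodes NRF2, was at 283 and 288 after vehicle and 337 and 340.5 after OI+PM, a change of 0.24 ± 0.06 (edgeR adjusted p = 0.00512) that is below 2-fold. Keap1, the NRF2 inhibitor, and Bach1, a repressor at the same DNA sites, were at 0.35 and 0.39 and were no DEGs. Sqstm1, the autophagy receptor p62, rose by 2.13 ± 0.12 and Maff, a small partner of NRF2 on DNA, by 1.60 ± 0.20.

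To show the DNA in front of genes of these lists, RefSeq promoter entries (GRCm38.p6) were searched for the core of the antioxidant response element, TGACNNNGC, on both strands of the 250 bases before the start. Of 28 tested members of the 3 NRF2 target lists with an entry (33 tested), 9 (32.1%) held it, beside 11.5% of 27025 genes with an entry and 14.2% of the genes tested that had one. The 3 DEGs with a match, a RefSeq start within 100 bases of the annotated gene start and the largest change are shown on the strand of the gene, 5′ to 3′, with the match in capitals: Gsta3 at chr1:21240439-21240497, plus strand, Gclm at chr3:122245398-122245456, plus strand, and Prdx1 at chr4:116685441-116685499, plus strand. A match is a description of letters and not a site.
Gsta3: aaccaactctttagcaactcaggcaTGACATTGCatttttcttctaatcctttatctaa
Gclm: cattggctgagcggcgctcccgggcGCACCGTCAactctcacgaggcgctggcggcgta
Prdx1: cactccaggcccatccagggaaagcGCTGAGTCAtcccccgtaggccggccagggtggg

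Other stress programmes rose in part, and their counts are read beside the 3.78% of all genes tested that rose and the 8.88% that fell. Of 14 heat shock genes tested, 3 rose and 0 fell (median 0.58). Hspa1a, the inducible HSP70 chaperone, was at 1.09 and 1.11 after vehicle, 12.4 and 11.4 after PM and 23 and 26.2 after OI+PM, and its neighbour Hspa1b rose by 4.17. These 2 genes are nearly identical, so how reads were split between them is uncertain. Hsph1, an HSP70 partner, rose by 1.22, and the others, Hsp90aa1 and Dnajb1 among them, were below 2-fold. Of 6 metallothionein and zinc genes, 3 rose: the metal-binding Mt2 (2.92 ± 0.29) and Mt1 (2.03 ± 0.25), and the zinc exporter Slc30a1 (1.57 ± 0.08). After PM alone these 3 stood at 2.61, 1.55 and 0.54 over vehicle. In the iron list, Fth1 and Ftl1, the ferritin chains that store iron, rose by 1.71 and 1.15, Slc11a1, which moves iron out of phagosomes, rose by 1.26, and Tfrc, the transferrin receptor that takes iron up, fell from 223 and 241 to 75.9 and 75.3. With total count scaling Ftl1 was at 0.99, under the 2-fold threshold. The remaining 6 tested did not pass. Of 19 ATF4 stress genes, 5 rose and 1 fell. Slc7a11 is 1 of the 5 and is counted in the glutathione list as well. Trib3, a pseudokinase, Cebpb and Ddit3, both transcription factors, rose by 1.69, 1.66 and 1.26, and Psat1, an enzyme of serine synthesis, fell (-1.01). The AhR list, genes that respond to aromatic compounds, had 5 tested, of which 4 rose (Nqo1, which also stands in the detoxification list, the repressor Ahrr, 2.46, the ADP-ribosyltransferase Tiparp, 1.65, and Ahr itself, 1.54). After PM alone, Ahrr, Tiparp and Ahr stood at 2.21, 0.48 and 0.25 over vehicle. Cyp1b1, an AhR target under the CPM filter, had 4 and 1 counts after vehicle, 25 and 18 after OI+PM and 26 and 31 after PM. Others under the filter were near absent: Cyp1a1 had 1 and 0, 2 and 4 and 5 and 0 counts in the same order, and Aldh3a1 0 and 0, 1 and 1 and 0 and 0.

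Genes of cell division fell as a group. Of 36 mitosis genes tested, 35 fell and 0 rose, with a median of -4.69, and of 38 DNA replication genes 32 fell and 0 rose, with a median of -2.21. Over all genes tested 8.88% fell. Pttg1, the inhibitor of separase known as securin, was the mitosis gene that did not pass, at 0.70 (edgeR adjusted p = 0.0123). Ccna2, cyclin A2, was at 86.5 and 86.6 normalized CPM after vehicle, 58.5 and 55.2 after PM and 1.12 and 1.45 after OI+PM (-6.08 ± 0.11, edgeR adjusted p = 7.92e-10). The OI+PM libraries lay far below those of both other groups. Kif2c and Kif4, motor proteins of the spindle, fell (-5.96 and -5.78). The proliferation antigen Mki67 and the topoisomerase Top2a fell (-5.11 and -5.06), as did Plk1 and Aurkb, kinases of mitosis (-4.75 and -3.57), and Foxm1, a transcription factor of mitotic genes (-4.63). Among replication genes, the 6 subunits of the MCM helicase, Mcm2 to Mcm7, fell, with log2 fold changes from -3.82 (Mcm5) to -2.02 (Mcm6). Tk1, which makes thymidine phosphate, went from 27.7 and 23.4 to 0.302 and 0.461 with 23.1 and 20.5 after PM. Uhrf1, which helps copy DNA methylation, fell (-5.32), as did Mcm10, a replication initiation factor (-5.02). The 6 replication genes that did not pass both thresholds were Cdt1, Pcna, Rfc3, Rfc4, Dnmt1 and E2f1, at -0.97 to -0.43. With PM alone, 1 mitosis gene (Cenpf) and 0 replication genes were DEGs lower than vehicle (1.24% of all genes), and the list medians were -0.54 and -0.20. Against PM, 35 mitosis and 32 replication genes were DEGs lower with OI+PM (7.32% of all genes).

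The cell cycle genes homology region, TTTGAA, an element of genes expressed before mitosis, was searched in the same way. It was held by 10 of 30 mitosis genes with an entry (33.3%), beside 18.3% of all genes with an entry and 12.6% of those tested. The 3 with the largest decrease under the same limit on the start are shown, with the match in capitals: Ube2c at chr2:164769875-164769928, plus strand, Ccnb2 at chr9:70421691-70421746, minus strand, and Kif11 at chr19:37376338-37376381, plus strand. Ube2c, which marks mitotic proteins for destruction, fell (-5.36), as did Ccnb2, a cyclin (-5.29), and Kif11, a spindle motor (-5.23).
Ube2c: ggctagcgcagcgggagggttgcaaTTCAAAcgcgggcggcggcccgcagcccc
Ccnb2: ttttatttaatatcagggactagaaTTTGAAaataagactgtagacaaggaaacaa
Kif11: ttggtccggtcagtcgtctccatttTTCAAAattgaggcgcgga

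Regulators of cell cycle entry moved one by one. Of 24 CDK inhibitors and p53 targets tested, 3 rose and 4 fell, beside 3.78% and 8.88% of all genes tested (median 0.03). Cdkn1c, the CDK inhibitor p57, was at 2.46 and 2.25 after vehicle, 7.08 and 6.05 after PM and 34.1 and 35.8 after OI+PM, while Cdkn1a, the p53 target p21, was at 0.02 and did not pass (edgeR adjusted p = 0.832). The other 2 that rose, Cdkn2b and Fas, changed by 1.24 and 1.28. Cyclin D1 (Ccnd1) and cyclin D2 (Ccnd2), which start the cycle after growth factor signals, fell: Ccnd1 was at 543 and 553 after vehicle, 205 and 235 after PM and 74.6 and 68 after OI+PM, and Ccnd2 changed by -3.37 ± 0.13. Cdkn2c, a CDK4/6 inhibitor, fell (-2.10), and Sesn1, a p53 target, changed by -1.98. Mdm2, Bax and Trp53 were between 0.09 and 0.41 and were no DEGs. Across genes, log2 fold change fell with exonic length (Spearman rho -0.28 over 10937 genes, a description, since genes are not independent replicates). A correction for length left 1278 of the 1386 DEGs as DEGs.

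**Figure D2:**
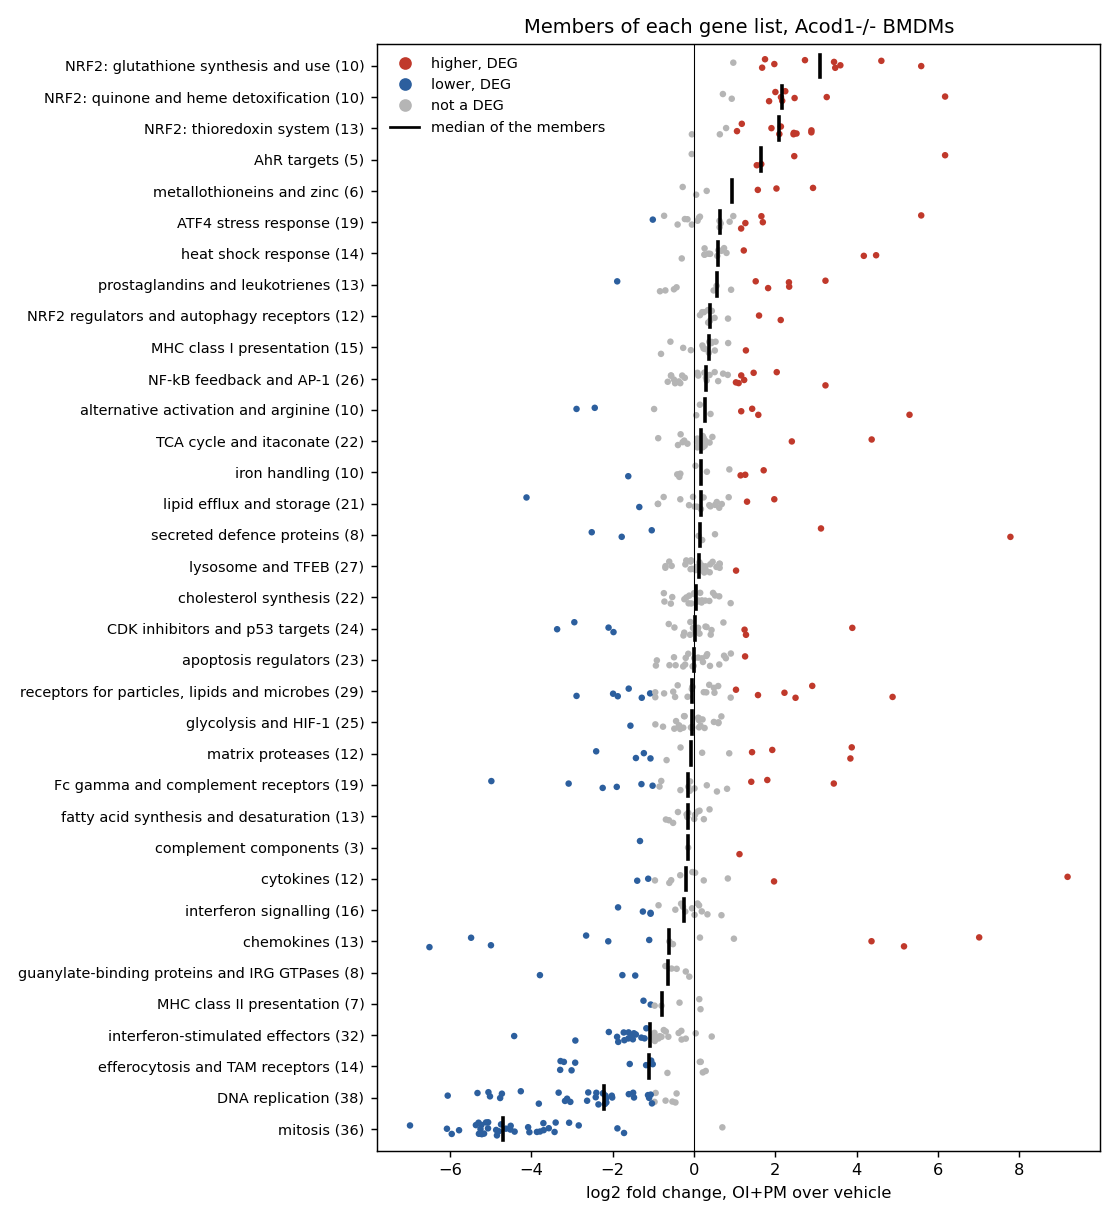
Log2 fold change of OI+PM over vehicle for every tested member of 35 gene lists (1 point a gene, number tested in parentheses), with lists ordered by their median (black bars). Red points are DEGs that rose, blue points DEGs that fell and grey points other members. The 3 lists of NRF2 targets have the highest medians, 2.10 to 3.08, and mitosis and DNA replication the lowest, -4.69 and -2.21.

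Interferon-stimulated genes lay below vehicle or near it after OI+PM, whereas many lay above vehicle after PM alone. Of 36 effector genes listed, 32 were tested, and 0 rose and 16 fell (median -1.09), beside 8.88% of all genes tested that fell. Of 15 guanylate-binding proteins and IRG GTPases, which attack vacuoles of intracellular microbes, 8 were tested, and 0 rose and 3 fell (median -0.63). Rtp4, a chaperone of receptors and a strong interferon target, fell most of the 32, from 36.5 and 36.8 after vehicle to 1.57 and 1.85 after OI+PM (-4.42 ± 0.13, edgeR adjusted p = 3.04e-09), and was highest after PM at 100.5 and 96.6. Oas2 and Oasl2, of the family that senses double-stranded RNA, went from 21.5 and 18.8 to 2.23 and 3.11 and from 69.7 and 69.7 to 15.7 and 16.9. Slfn8, of the schlafen family, fell (-1.71), as did Gbp9 (-3.79), though its exons overlap those of Gbp4 and Gbp8. Isg15, a ubiquitin-like protein (-0.31), Rsad2, the antiviral viperin (-0.38), and Gbp2 (-0.12) were among the members that did not pass. Set beside PM, 29 of the 32 effector genes and 8 of the 8 GTPases were DEGs lower with OI+PM (7.32% of all genes), and against vehicle 19 and 5 were DEGs higher with PM (2.69% of all genes). The median effector gene stood at 1.15 after PM and -1.09 after OI+PM on the log2 scale, both relative to vehicle. Under the CPM filter, Gbp5 had 43 and 53 counts after vehicle, 20 and 11 after OI+PM and 515 and 546 after PM, and Ifi44 had 38 and 51 counts after vehicle, 9 and 11 after OI+PM and 323 and 284 after PM. Of 16 genes of interferon signalling, 4 fell and 0 rose, among them the transcription factors Irf9 (-1.26 ± 0.06) and Irf7 (-1.07 ± 0.11), and Usp18 (-1.87 ± 0.18), which dampens the receptor. The receptor chains Ifnar1 and Ifnar2 were at -0.46 and 0.01.

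The interferon-stimulated response element, searched as GAAA, any 2 bases and GAAA on both strands, was held by 18 of 32 members of these 2 effector lists with an entry (56.2%), beside 3.5% of all genes with an entry and 3.3% of those tested. The 3 DEGs with a match and the largest decrease under the same limit are shown, matches in capitals: Ifit1 at chr19:34640779-34640838, plus strand, Gbp7 at chr3:142530258-142530317, plus strand, and Ifit3 at chr19:34583382-34583441, plus strand. Ifit1 and Ifit3, which bind foreign RNA, changed by -1.89 and -1.73, and Gbp7 by -1.76.
Ifit1: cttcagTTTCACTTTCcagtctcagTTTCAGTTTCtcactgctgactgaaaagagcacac
Gbp7: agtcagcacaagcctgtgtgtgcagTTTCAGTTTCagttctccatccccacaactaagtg
Ifit3: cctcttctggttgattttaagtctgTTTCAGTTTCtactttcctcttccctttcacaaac

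Chemokine genes moved in both directions. Of 20 listed, 13 were tested, 3 rose and 6 fell, beside 3.78% and 8.88% of all genes tested (median -0.61). Those that rose were the neutrophil-attracting Cxcl1, Cxcl2 and Cxcl3, and those that fell were the monocyte-attracting Ccl2, Ccl7 and Ccl12, and Ccl3, Ccl4 and Ccl6. Cxcl2 went from 5.14 and 4.83 to 95.9 and 109 and lay above vehicle in both libraries. Cxcl3 was at 0.355 and 0.166 normalized CPM after vehicle, 31.8 and 31.8 after PM and 30.2 and 38.1 after OI+PM, and Cxcl1 at 0.410 and 0.555, 22.8 and 25.3 and 14.9 and 19.9. In both, PM and OI+PM were far above vehicle and close to each other. Ccl2, a major signal for monocytes, was at 104 and 109 after vehicle, 63.2 and 58.4 after PM and 2.32 and 2.43 after OI+PM (-5.48 ± 0.21, edgeR adjusted p = 1.63e-08), and Ccl7 went from 27.4 and 28.6 to 0.392 and 0.215. Ccr2, the receptor for both, went from 6.20 and 7.79 to 0.724 and 0.923 (-3.08). Ccl5, which calls T cells, was at 0.98 against vehicle and did not pass, with 2.00 and 2.19 after vehicle, 31.4 and 27.8 after PM and 3.50 and 4.77 after OI+PM. Cxcl10, an interferon-induced chemokine under the CPM filter, had 40 and 44 counts after vehicle, 25 and 35 after OI+PM and 598 and 611 after PM. Against PM, 8 of the 13 were DEGs lower and 0 higher with OI+PM (7.32% and 1.84% of all genes).

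The 3 chemokines that rose hold the same 10 bases in their promoter DNA. A kappaB site, an element bound by NF-kB, was searched on both strands as the 10 bases in capitals and was held by 3 of 8 tested chemokines with an entry (37.5%), beside 0.1% of all genes with an entry (28 of 27025) and 0.2% of those tested. The 3 are Cxcl3 at chr5:90786003-90786062, plus strand, Cxcl1 at chr5:90891149-90891208, plus strand, and Cxcl2 at chr5:90903777-90903836, plus strand, neighbours on the same chromosome, with the match 62 to 97 bases before the start.
Cxcl3: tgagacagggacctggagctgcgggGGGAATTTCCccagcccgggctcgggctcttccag
Cxcl1: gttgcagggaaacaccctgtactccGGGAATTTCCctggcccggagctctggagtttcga
Cxcl2: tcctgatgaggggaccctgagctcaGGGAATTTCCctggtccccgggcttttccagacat

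Cytokine genes showed no common direction. Of 23 listed, 12 were tested, and 2 rose (Il1f9 and Il1a) and 2 fell (Il1rn and Pdgfb), beside 3.78% and 8.88% of all genes tested. Tnf was at 15.6 and 17.4 after vehicle, 70.0 and 66.2 after PM and 28.8 and 29.9 after OI+PM, a difference from vehicle of 0.83 ± 0.16 that did not reach 2-fold (edgeR adjusted p = 0.00166). Il1a, an alarmin of the IL-1 family, was at 0.656 and 0.749, 21.7 and 19.2 and 2.92 and 2.58 in the same order (1.97 against vehicle). Il1rn, the antagonist of the IL-1 receptor, fell from 156 and 164 to 61.5 and 59.9, while PM stood above vehicle at 254 and 249.8. Pdgfb, a growth factor for mesenchymal cells, fell (-1.13). Il1b, Il6 and Nos2 were under the CPM filter and not tested. Il1b had 26 and 26 counts after vehicle, 41 and 52 after OI+PM and 557 and 506 after PM, Il6 had 0 and 1 counts after vehicle, 4 and 3 after OI+PM and 32 and 37 after PM, and Nos2, the inducible nitric oxide synthase, had 3 and 1 counts after vehicle, 1 and 5 after OI+PM and 27 and 17 after PM. The counts of Il6 and Nos2 in vehicle and OI+PM are too low to show a difference at this depth. Of 26 NF-kB feedback and AP-1 genes tested, 7 rose and 0 fell (median 0.30). With PM alone, 8 were DEGs higher and 1 lower than vehicle (2.69% and 1.24% of all genes), with a median of 0.61. Against PM, 2 were DEGs higher and 4 lower with OI+PM (1.84% and 7.32% of all genes). Nfkbie, an inhibitor of NF-kB, rose by 1.47 ± 0.12, Ier3, an early response gene, by 1.23 ± 0.17 (0.98 with the gene length correction, under the 2-fold threshold) and Egr2, a transcription factor, by 1.16 ± 0.06, while Nfkb1 (-0.29), Rela (0.08) and Fos (-0.37) did not pass. After PM alone, Nfkbie and Ier3 stood higher, at 2.11 and 2.02 over vehicle, and Egr2 lower, at -0.23. Of 13 prostaglandin and leukotriene genes tested, 5 rose and 1 fell. Ptgs2, the inducible cyclooxygenase, was at 2.05 and 2.47 after vehicle, 39.1 and 37.3 after PM and 19.1 and 23.4 after OI+PM. The prostaglandin E synthase Ptges, the receptor Ptger2 and the phospholipase Pla2g4a rose by 2.33, 2.34 and 1.82, and Hpgd, which inactivates prostaglandins, fell (-1.89).

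**Figure D3:**
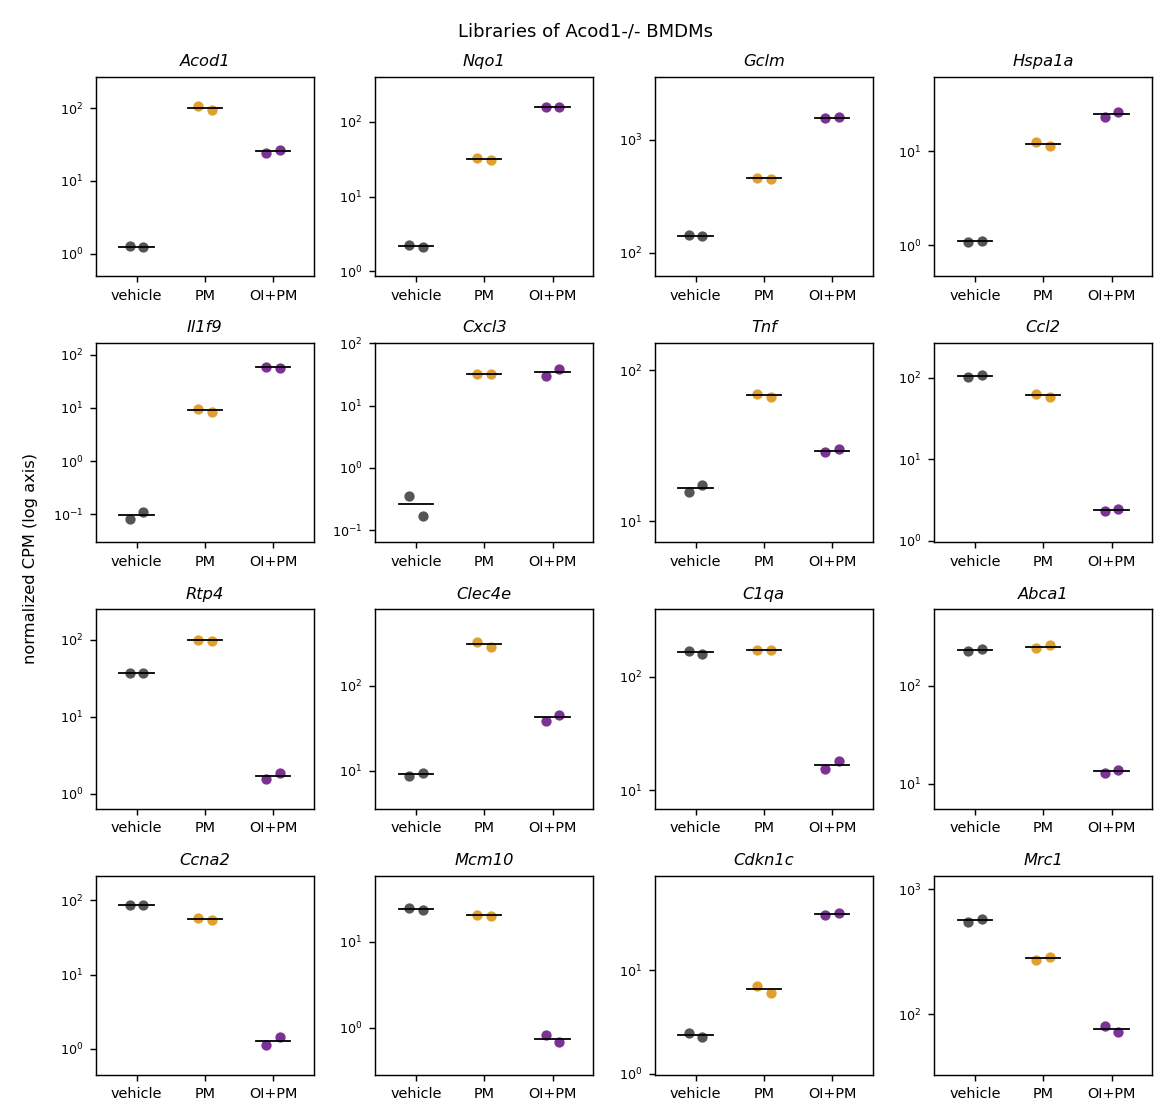
Normalized CPM (vertical log axes, a scale for each gene) in each of the 2 Acod1-/- libraries that received vehicle, PM or OI+PM for 16 genes. Points are libraries and short lines are group means. Nqo1, Gclm, Hspa1a and Il1f9 climb from vehicle through PM to OI+PM, Acod1, Tnf and Clec4e peak after PM and stay above vehicle after OI+PM, Rtp4 peaks after PM and ends below vehicle, and Mrc1, Ccl2, C1qa, Abca1, Ccna2 and Mcm10 are lowest after OI+PM.

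Receptors moved in both directions, and their counts are read beside the 3.78% of all genes that rose and the 8.88% that fell. Of 29 receptors for particles, lipids and microbes tested, 6 rose and 6 fell (median -0.05). Of the C-type lectins of the dectin-2 cluster, 3 rose: Clec4n (dectin-2), which binds mannans, from 5.47 and 5.41 to 157 and 164, Clec4d from 483 and 480.3 to 2653 and 2777, and Clec4e (mincle) from 8.66 and 9.54 to 39.1 and 46. Clec4a2 (0.30) and Clec4a3 (-0.51) were no DEGs. Clec4e was higher still after PM, at 327 and 286, while Clec4n and Clec4d were lower after PM (66 and 61.2, and 1625 and 1447) than after OI+PM. Mrc1, the mannose receptor, fell from 549 and 579.6 to 79.8 and 72.5, with 273 and 288 after PM. Olr1, a receptor for oxidized LDL, rose by 2.91, less than after PM alone (4.11). Clec7a (dectin-1), which binds fungal glucans, rose by 1.57. The scavenger receptors Cd163 and Stab1 fell (-1.61 and -1.99), as did Tlr9, a sensor of microbial DNA (-1.88). Tlr4 (-0.16) and Tlr2 (-0.04) did not pass. Marco, a scavenger receptor for particles, was at 2.21 and 2.5 after vehicle, 80.1 and 77.2 after PM and 2.92 and 3.69 after OI+PM, and was no DEG (0.49, edgeR adjusted p = 0.0556). Of 19 Fc gamma, complement and chemoattractant receptors tested, 3 rose and 6 fell. Cx3cr1, the fractalkine receptor of resident macrophages, went from 12.2 and 11.2 after vehicle and 11.6 and 10.7 after PM to 0.241 and 0.492 after OI+PM. Fcgr1, the high-affinity receptor for IgG, fell (-1.90 ± 0.06), while Ccr1 rose by 1.41 ± 0.08. Fpr1 and Fpr2, receptors for formylated peptides, rose as well, Fpr1 from 0.820 and 0.638 to 8.20 and 7.66 and Fpr2 by 1.80. Both stood higher after PM alone, at 5.66 and 4.92 over vehicle, and were DEGs lower with OI+PM than with PM (-2.23 and -3.12). Genes for the uptake of dying cells fell in part. Of 14 tested, 0 rose and 9 fell (median -1.12). The 3 chains of C1q, the opsonin that starts the classical complement pathway, fell alike: C1qa from 169 and 159 to 15.5 and 18, C1qb (-2.92) and C1qc (-3.01). Their levels after PM (174 and 172 for C1qa) were near those after vehicle. Mertk, a TAM receptor, fell (-1.18). Gas6, a ligand of the TAM receptors, fell (-1.58), and Trem2 (0.17) and Tyrobp (0.22) did not pass. Of 3 complement component genes tested of 10, C3 rose by 1.12 ± 0.11, under the 2-fold threshold with total count scaling at 0.97, and Cfp (properdin) fell (-1.33 ± 0.09). C3 was far higher after PM, at 98.2 and 93.9 normalized CPM against 9.53 and 8.80 after OI+PM. Of 7 MHC class II genes tested, 2 fell (Cd74, the invariant chain, -1.24, and the costimulator Cd86, -1.07). Of 15 MHC class I genes, 1 rose, H2-D1, by 1.27 ± 0.08. H2 genes are close relatives, so the split of reads between them is uncertain.

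Metabolic lists were read beside the 12.7% of all genes tested that were DEGs. Of 22 cholesterol synthesis and 13 fatty acid synthesis genes tested, 0 were DEGs in either direction, with medians of 0.04 and -0.14. At an adjusted p of 0.05 or less without a fold threshold, 11 and 5 of them passed in edgeR, beside 5453 of all 10950 genes. Of 21 lipid efflux and storage genes, 2 rose (Angptl4, an inhibitor of lipoprotein lipase, 1.97 ± 0.10, and the nuclear receptor Ppard, 1.30 ± 0.09) and 2 fell (Abca1 and the lipid transfer protein Pltp, -1.35 ± 0.08). Abca1, which exports cholesterol, was at 229.8 and 238 after vehicle, 245 and 260.4 after PM and 13 and 14 after OI+PM (-4.12 ± 0.21, edgeR adjusted p = 1.72e-07). Abcg1, its partner in efflux, was at -0.34 and was no DEG. Of 25 glycolysis and HIF-1 genes, 1 fell (Ankrd37, a HIF-1 target, -1.56) and 0 rose. Of 22 genes of the TCA cycle and itaconate metabolism, 2 rose, Acod1 and Pcx, which makes oxaloacetate from pyruvate (2.40 ± 0.15). The 4 subunits of succinate dehydrogenase were between -0.16 and 0.38 and were no DEGs. Of 27 lysosome genes, 1 rose, the protease Ctsk (1.03, under the 2-fold threshold at 0.82 with the gene length correction and 0.88 with total count scaling), and of 23 apoptosis regulators, 1 rose, Gsdme, which forms pores after caspase cleavage (1.25).

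Matrix, arginine and secreted defence genes were mixed. Of 12 matrix protease genes tested, 4 rose and 4 fell, beside 3.78% and 8.88% of all genes tested. Mmp8, neutrophil collagenase, was at 26.4 and 31 after vehicle, 256 and 253 after PM and 423 and 421 after OI+PM. Mmp12, macrophage elastase and among the most abundant transcripts, went from 7494 and 7995 to 29173 and 29561. Plau, urokinase, fell from 1649 and 1716 to 323 and 311 with 573 and 568 after PM, the gelatinase Mmp9 fell (-1.23), as did the inhibitor Timp2 (-1.43). Of 10 genes of alternative activation and arginine metabolism tested, 4 rose and 2 fell. Ass1 rose from 0.711 and 0.749, with 15.6 and 14.5 after PM and 26.1 and 31.5 after OI+PM. Cd274, the checkpoint ligand PD-L1, rose by 1.58 ± 0.11, to levels (175 and 177) near those after PM (157 and 151). Of 8 secreted defence genes tested, 2 rose, Slpi and S100a8 (3.12 ± 0.34), and 3 fell, among them the matrix proteins Thbs1 (-2.52 ± 0.24) and Fn1 (-1.78 ± 0.20). Spp1, osteopontin, fell (-1.04). The fibroblast marker sum also fell, from 3.53 and 3.69 to 1.24 and 0.677, and its part in the values of Thbs1 and Fn1 was not tested.

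Families defined by gene symbol, which were chosen after values were seen, are read beside the 3.78% of all genes tested that rose and the 8.88% that fell. Of 186 solute carriers tested, 14 rose and 15 fell (median -0.002). Beyond those above, the carnitine and ergothioneine carrier Slc22a4 went from 14.5 and 15.2 to 128 and 123 and the heme transporter Slc48a1 from 458 and 469.9 to 1190.2 and 1153, and the sodium-proton exchanger Slc9a9 fell from 69 and 71.3 to 6.63 and 7.01. Of 33 kinesins, 17 fell and 0 rose, and of 21 centromere proteins, 14 fell and 0 rose. Of 28 G protein-coupled receptors with Gpr or Adgr symbols, 11 fell and 2 rose. Of 14 glutathione S-transferases, 7 rose and 0 fell, and of 13 serpins, 7 rose and 2 fell, with Serpinb9b at 14.8 and 16.2 after vehicle and 363 and 351 after OI+PM. Housekeeping families held few DEGs: 0 of 68 cytosolic ribosomal proteins were DEGs (median 0.27), 2 of 76 respiratory chain subunits (median 0.23) and 1 of 39 proteasome subunits (median 0.37). Genes in no list made up most of the DEGs, 323 of those that rose and 828 of those that fell. Ighm, the heavy chain of IgM and a B cell marker, also rose, and was at 22.3 and 21.7 after vehicle, 11.8 and 10.9 after PM and 92 and 107 after OI+PM.

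**Figure D4:**
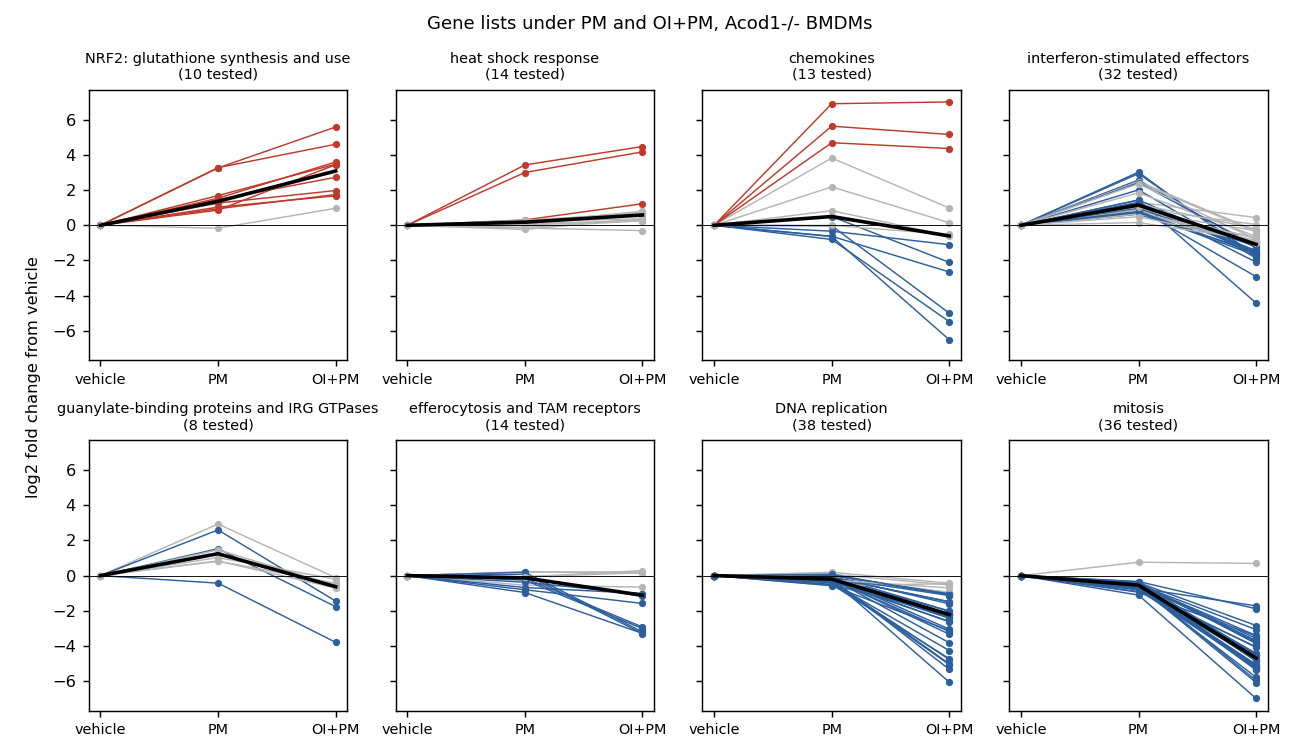
Log2 fold change from vehicle (vertical axes) in Acod1-/- BMDMs after PM and after OI+PM for the tested members of 8 gene lists. Each thin line is a gene, coloured by its call in OI+PM against vehicle (red rose, blue fell, grey no DEG), and the black line is the median. Interferon-stimulated effectors have a median of 1.15 after PM and -1.09 after OI+PM, while mitosis genes go from -0.54 to -4.69, with the same vehicle libraries at the base of both.

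The same contrast was made in WT cells, whose group means come from other libraries, while all 12 libraries share 1 estimate of the spread. Over the genes tested, 1698 were DEGs in WT (15.5%), 547 higher and 1151 lower. Of the 1386 DEGs in Acod1-/- cells, 1385 had the same sign in WT, and 1267 were DEGs in the same direction, which is 91.4% of the Acod1-/- DEGs and 74.6% of the WT DEGs. The exception in sign was Ccl3, at -1.10 in Acod1-/- and 0.01 in WT. Across genes, the log2 fold changes of the genotypes correlated with Pearson r = 0.96, a description over 10950 genes that are not independent replicates. The change in Nqo1 was 6.17 ± 0.11 in Acod1-/- and 5.99 ± 0.11 in WT, that in Ccna2 -6.08 ± 0.11 and -5.85 ± 0.11, and that in Rtp4 -4.42 ± 0.13 and -4.56 ± 0.15, and none of these passed the interaction test (edgeR adjusted p = 0.681, 0.689 and 0.809). The interaction, the change in Acod1-/- minus the change in WT, passed both thresholds in 2 genes (0.0183% of genes tested) by edgeR's quasi-likelihood test, with 872 genes at an unadjusted p under 0.05, and in 8 genes by DESeq2. Mmp8 (GRCm38 chr9:7558456-7568485, plus strand) rose by 3.88 ± 0.11 in Acod1-/- and 2.72 ± 0.10 in WT, an interaction of 1.16 ± 0.14 (edgeR adjusted p = 0.0365). Its WT levels were 56 and 57.2 after vehicle and 407 and 338 after OI+PM. Plau (GRCm38 chr14:20836660-20843385, plus strand) changed by -2.41 ± 0.08 in Acod1-/- and -1.35 ± 0.07 in WT, an interaction of -1.06 ± 0.10 (edgeR adjusted p = 0.0169), with WT levels of 1234 and 1356 after vehicle and 516 and 501 after OI+PM. Leaving out any 1 of the 6 Acod1-/- or 2 WT vehicle libraries, or fitting the 4 groups compared alone, left 0 genes past both thresholds. Leaving out either WT PM library left 1, and leaving out the first WT OI+PM library gave 122.

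**Figure D5:**
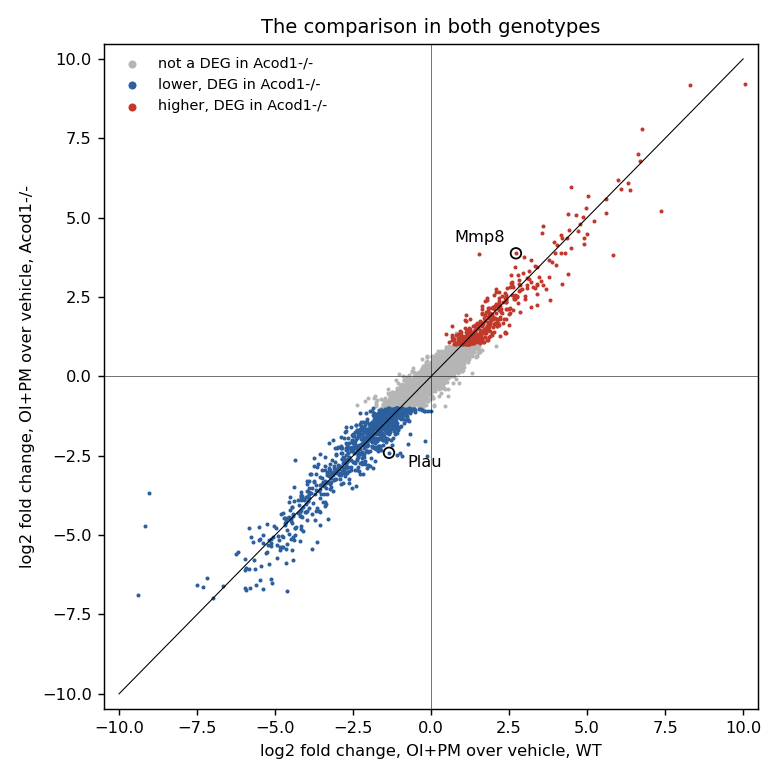
Log2 fold change of OI+PM over vehicle in Acod1-/- BMDMs (vertical axis) against that in WT BMDMs (horizontal axis) for the 10950 genes tested, with the line of equal change. Red and blue points are DEGs that rose and fell in Acod1-/- cells, and Plau and Mmp8, the 2 genes past both thresholds in the interaction test, are circled. Points follow the line (Pearson r = 0.96).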

How the data were processed

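RNA-seq was performed on BMDM libraries with 50 bp single-end reads. The submitters' processing notes name FastQC 0.11.5, STAR 2.5.3a, Picard 2.9.0, featureCounts and DESeq2 with the build GRCm38. The deposited table holds raw counts per gene, made by the authors without normalization, for 48795 genes. Whether counting used strand is not given in the sources used here.

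All 12 libraries (6 groups of 2) were fitted in 1 model with edgeR 4.0.16 in R 4.3.3 (TMM scaling, quasi-likelihood test, Benjamini-Hochberg adjustment over the genes tested). Genes with CPM above 1.5 in at least 2 of the 4 libraries compared were tested, 10950 of the 24979 with any count, and DEGs were genes that passed 0.05 on the adjusted p and changed by 2-fold or more. The authors' DESeq2 test was run as an alternative (version 1.42.0). The named genes were the 10 largest increases and decreases with an average CPM of at least 5, up to 4 DEGs in each list under the same limit, and Acod1, Nfe2l2, Nqo1, Gclm, Hmox1, Tnf, Il1b, Il6 and Nos2. The comparison, gene lists and tests were chosen with earlier results of these data known. Replicates differed by more than sampling noise (chi-square per degree of freedom 2.61 for vehicle and 4.16 for OI+PM). At 33942254 to 34601719 counts per library, counting intervals (95%, exact) were given for the largest changes with 3 counts or fewer in a library (for Tarm1 the lower bound) and cover counting error only. The model code was tested on simulated data. Alternatives were other scalings and filters, a correction for length, the replicate number as a block, and dropping libraries in turn. The promoter sequences come from RefSeq (GRCm38.p6). Results for some genes are not reported here.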

Additional observations from a re-analysis of the deposited data

Results flagged for a closer look

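The effect of OI+PM differed between Acod1-/- and WT cells in 2 genes by a test of the difference itself (edgeR's quasi-likelihood interaction test with Benjamini-Hochberg adjustment). For Plau, the log2 difference of effects, Acod1-/- minus WT, was -1.057. For Mmp8 it was 1.158. Serpinb9b, named after its value was seen, had the other adjusted p of 0.05 or less, at a log2 difference of 0.97 that is below 2-fold.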

How the results depend on the processing

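Of 112 named genes tested, 110 were DEGs, 101 kept that call under each alternative that tested them (83 were tested under the CPM filter in all 4 libraries), and 0 reversed. The stricter test glmTreat, against a 2-fold change, ended 9 calls, among them Ftl1, Ctsk, C3, Ier3, Irf7, Ddit3, Pdgfb and Gsdme, and the length correction that of Ftl1, Ctsk and Ier3. Against 1386 DEGs (414 higher, 972 lower), a filter of 10 counts in total gave 2112 (641 higher, 1471 lower), the CPM filter in all 4 libraries 917 (613 lower), which drops genes near absent in 1 group, and no fold threshold 5453 (2555 higher, 2898 lower). DESeq2 gave 1388, of which 1384 were shared, glmTreat 938, the length correction 1384 (1278 shared) and total count scaling 1541, and leaving out 1 library gave 1360 to 1404. Labels give replicate numbers, but same-numbered Acod1-/- vehicle and OI+PM libraries did not deviate together (r = -0.09; r = 0.32 for WT OI+PM with WT vehicle and with Acod1-/- OI+PM), and the fit with the replicate block gave 1388 DEGs.

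The genotype difference, 2 genes (1 higher, 1 lower), was sensitive: DESeq2 gave 8 (2 higher, 6 lower), the compared groups alone 0 (0 higher, 0 lower), glmTreat 0 (0 higher, 0 lower), total count scaling 1 (0 lower), neither Plau nor Mmp8, the length correction 5 (3 higher, 2 lower), with or without the replicate block and with Mmp8 but not Plau, the block alone 2 higher, and no fold threshold 2 higher. Leaving out 1 library gave 0 to 122 (0 to 77 higher, 0 to 45 lower), with 122 without the first WT OI+PM library. The cause was not tested. Depth limits genes under the CPM filter, such as Il6 and Nos2, which were not tested.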
